A study of Saccharomyces cerevisiae with 20 samples.

Results

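Yeast cells take an mRNA apart in a set order, and the machinery that does it is described here through 38 genes. Deadenylation comes first: the Ccr4-Not complex and the Pan2-Pan3 nuclease shorten the poly(A) tail. The decapping enzyme Dcp1-Dcp2, helped by Dhh1, Pat1, the Edc proteins and the Lsm ring, then removes the 5′ cap, and the exonuclease Xrn1 degrades the body of the message from its 5′ end. The Ski complex serves the exosome, which works from the 3′ end, the Upf proteins mark messages with premature stop codons, and a group of RNA-binding proteins accompanies mRNAs into repressed particles. The cap that the decapping enzyme removes is the structure that eIF4E, the product of CDC33, binds to begin translation.

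The 38 genes were taken by name from the listed decay factors, and every one was found among the 5778 names in the deposited gene tables. The cells were Saccharomyces cerevisiae of the BY4741 background with 1 of 2 alleles at the native locus: cdc33-ts4-2-HIS3, a temperature-sensitive form of eIF4E, or the wild-type CDC33-HIS3 carrying the same marker. Cultures grown in YPD at 25°C were shifted to 37°C or kept at 25°C for 1 h. The 20 libraries were 8 of ribosome profiling, 2 for each strain and temperature, and 12 of RNA-seq on poly(A)-selected RNA, 3 for each. Cycloheximide was added before harvest for profiling, and the study names it as a source of artifacts, though little biased at gene level. The study also reports footprints without the usual length distribution or in-frame enrichment, possibly from incomplete RNase digestion. It took them as ribosome-protected from their enrichment over coding sequences and 5′ UTRs and their low coverage of introns and 3′ UTRs. Coverage by position, centred on annotated coding starts, was a further ground. The labels could not be checked against the mutated gene, since the alleles differ by substitutions.

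The values available for these genes were of 2 kinds. The first was the authors' mean level of each gene, over all libraries of an assay, which has no replicate spread. The second was the density of reads over the 5′ UTR or the 3′ UTR of a gene, per base of that region, divided by the mean coverage of the coding sequence of the same gene in the same library. A density of 1 therefore means that the UTR was covered as the coding sequence was, and a density can change because the UTR or the coding sequence changed. A density is given per library, but the files give no read counts, so the depth behind each value, zeros included, is unknown. All 20 values were present for 17 of the 38 genes in 5′ UTRs (1218 of the 3933 genes listed) and for 16 of 38 in 3′ UTRs (1208 of 3932). A further 10 and 11 genes had fewer values, which could not be assigned to libraries, and 11 genes were not listed in each table. The complete genes were DCP2, DHH1, LSM6, XRN1, CCR4, POP2, CDC39, NOT3, MOT2, PAN3, SKI3, NAM7 (Upf1), PUB1, PBP1, SBP1 and PUF3 in both regions, and CAF40 in 5′ UTRs.

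The bases just before the start codon, where a leader ends, are shown for the genes at either end of the range of 5′ UTR footprint density. The leader of SKI3 is listed at 16 nt, so the first bases of its run lie outside it. Sequences are from the RefSeq genome of assembly R64, and capitals mark each ATG.

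NOT3: ttgtATGtttagtcgatcgacATG
CAF40: acatcctctgaataagttaatATG
XRN1: acaaatatatatcagtacggtATG
CDC39: cactcagggacaattgattacATG
SKI3: aacacgaagagcagaggaaatATG
LSM6: aacaagcagagattattagtgATG

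Each run holds 21 bases before the start codon and the start codon itself. NOT3 lies at chrIX:282650-282673 on the minus strand, CAF40 at chrXIV:90282-90305 on the plus strand and XRN1 at chrVII:180111-180134 on the minus strand. CDC39 lies at chrIII:280096-280119 and SKI3 at chrXVI:912643-912666, both on the plus strand, and LSM6 at chrIV:1229607-1229630 on the minus strand. NOT3 is the only one of the 6 with a second ATG in this stretch. Its A stands 17 nt before the A of the annotated start codon, in another reading frame, and that frame has no stop codon before the start codon. The letters ATG were searched on the sense strand, in any frame and with overlaps counted, over 100 nt before the start codon. They were present in 16 of the 38 members (42.1%), in 3 of the 17 with all values (17.6%: NOT3, PAN3 and LSM6), in 34.0% of the 1215 genes with all values that could be read and in 52.2% of 6026 genes of the annotation. The match is a description of these letters and not of a used start site.

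The mean RNA levels of the 38 genes ran from percentile 5.88 to percentile 87.4 of all yeast mRNAs measured. Levels were set per kilobase of the coding sequence with its flanks, and a percentile gives the share of the 5698 genes with a mean above 0 in both assays that lay below. The median member stood at percentile 56.7 of RNA and at percentile 68.8 of footprints. LSM6, a subunit of the Lsm ring, had the highest RNA level at 1491.5 normalised reads per kb (percentile 87.4), followed by the mRNP protein gene SBP1 at 1107, LSM5 at 905, the poly(U)-binding protein gene PUB1 at 819 and the Ccr4-Not subunit gene CAF40 at 774. The lowest were UPF3 at 15.98 (percentile 5.88), NMD2 (Upf2) at 36.0, and the 3 Ski genes SKI7 at 40.3, SKI3 at 43.7 and SKI2 at 54.0. The scarce end was thus held by genes of nonsense-mediated decay and the Ski complex, although NAM7, the helicase of nonsense-mediated decay, stood at 242, and SKI8, the remaining Ski subunit gene, at 518.

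Subunits of one complex differed widely in level. The decapping pair was close, with DCP1 at 108 and DCP2 at 91.9 normalised RNA reads per kb. In the Lsm ring the levels ran from 87.8 in LSM4 to 1491.5 in LSM6, and in the Ccr4-Not complex from 68.7 in CAF130 to 774 in CAF40, with the scaffold gene CDC39 (Not1) at 77.7. The catalytic subunit genes of that complex stood at 389 for POP2 and 260 for CCR4. XRN1 stood at 228, PAN3 at 204 and PAN2 at 86.8. Among the decapping activators the levels ran from 126 in EDC3 to 428 in EDC2, with the helicase gene DHH1 at 410 and PAT1 at 390.

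Footprints relative to RNA were higher for most of these genes than for the typical gene. The log2 of the footprint mean over the RNA mean, less the median of all genes, had a median of 1.12 over the 38 members, and 7 of 38 lay below the median of all genes, where 2849 of the 5698 genes lie by construction. For 42 other decay genes, among them exosome, nuclease and Puf family genes, the median was 0.55 and 13 of 42 lay below. The highest values were those of UPF3 at 2.78, LSM4 at 2.65, LSM3 at 2.29, CDC39 at 2.08 and SKI3 at 2.05, and DCP2 stood at 1.87. The lowest were those of CAF40 at -1.44, SKI8 at -0.66, LSM6 at -0.32, POP2 at -0.27 and NAM7 at -0.21. Before division by length, UPF3, LSM3 and LSM4 had the smallest mean RNA counts of the members, at 20.2, 51.8 and 58.3. Their ratios thus rest on low counts. Of the 5 genes lowest in RNA level, 2 (UPF3 and SKI3) were among the 5 highest in this ratio. Over the 38 members the ratio and the RNA level had a Spearman correlation of -0.594, against -0.363 over all genes, and RNA stands on both sides of that relation. These ratios come from means pooled over strains and temperatures, and no test was possible.

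**Figure D1:**
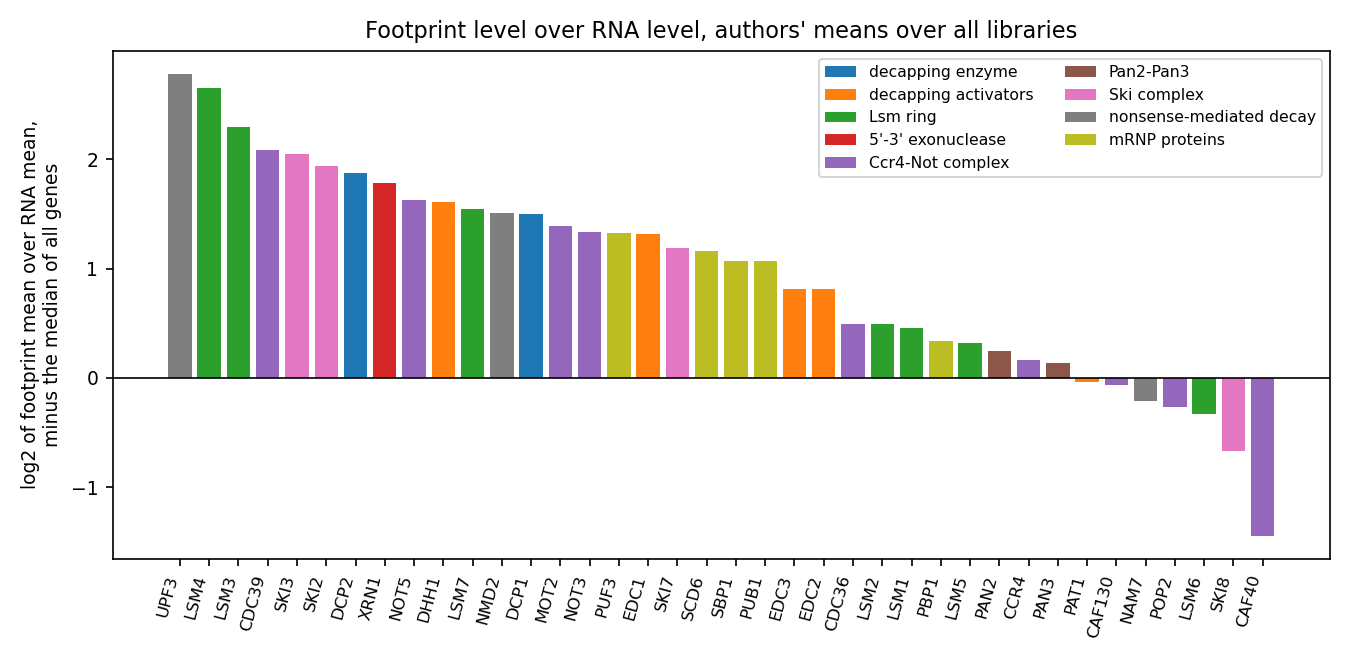
Bars give, for each of the 38 genes, the log2 of the authors' mean footprint level over their mean RNA level, less the median over all genes, coloured by role. The bars run from 2.78 in UPF3 to -1.44 in CAF40, and 7 of the 38 lie below 0.

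Footprints over 5′ UTRs differed widely between the members. NOT3, a regulatory subunit gene of the Ccr4-Not complex, had the highest mean footprint density over the 8 libraries at 1.87 (percentile 96.9 of the complete genes), CAF40 had 1.36 and XRN1 0.829. The lowest were LSM6 at 0.00457 (percentile 6.57), SKI3 at 0.0437 and CDC39 at 0.0516. The mean of SKI3 rested on a single library: its leader was listed at 0 in all 12 RNA-seq libraries and in 7 of the 8 footprint libraries, and at 0.349 in the remaining one. The lowest NOT3 library, at 0.737, stood above the highest LSM6 library, at 0.0104. LSM6 was low by both assays, with a mean of 0.00902 by RNA-seq, and its footprint and RNA values lay between 0.00154 and 0.0208. In RNA-seq the highest mean densities were those of CCR4 at 1.36, PUB1 at 1.35 and CAF40 at 1.24.

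To ask whether leaders carried more or fewer footprints than their RNA coverage, the 2 assays were compared within each strain and temperature on log2(density + 0.01), with an exact permutation of the assay labels over 10000 arrangements. XRN1 and NOT3 had more footprints over their leaders than RNA coverage, relative to the coding sequence. The XRN1 density was 0.238 to 2.10 in the 8 footprint libraries, with a median of 0.562, against 0.110 to 0.433 with a median of 0.277 in the 12 RNA-seq libraries. XRN1 was higher by 1.503 on the log2 scale (exact permutation test, two-sided, adjusted p = 0.0023). The NOT3 density was 0.737 to 3.39 in footprints with a median of 1.59, against 0.559 to 1.70 with a median of 0.969 in RNA-seq, a difference of 0.78 (adjusted p = 0.0032 in the same exact test). The ranges of the assays overlapped for each gene. Higher footprint density was called in 120 of 1207 genes.

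A further 9 members had fewer footprints than RNA reads over the leader, and 11 of 17 were called in all, against 84% of the genes tested. CCR4, the main deadenylase, had the largest difference at -4.17, followed by SBP1 at -3.49, PUB1 at -3.38 and MOT2, the ubiquitin ligase subunit gene of the Ccr4-Not complex, at -2.71. The footprint densities of CCR4 were 0 to 0.2997, against 0.4002 to 2.40 in RNA-seq, and did not overlap. PAN3 at -1.64, DHH1 at -1.45, PUF3 at -0.96, POP2 at -0.96 and LSM6 at -0.36 were also called lower. The median difference was -0.94 over the members and -1.90 over all genes tested. Measured against the median gene of each library, PAN3, DHH1, PUF3, POP2 and LSM6 lay on the higher side, so their direction holds against their own coding sequence only. On that scale 14 members were called, 11 higher and 3 lower, as were 76.1% of genes (919, of which 576 were higher), and MOT2 lost its call. NOT3 lost its call without replicate 2 of each group, with a range of 0.62 to 1.02 over the replicates left out, and LSM6 without replicate 1 or replicate 2.

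**Figure D2:**
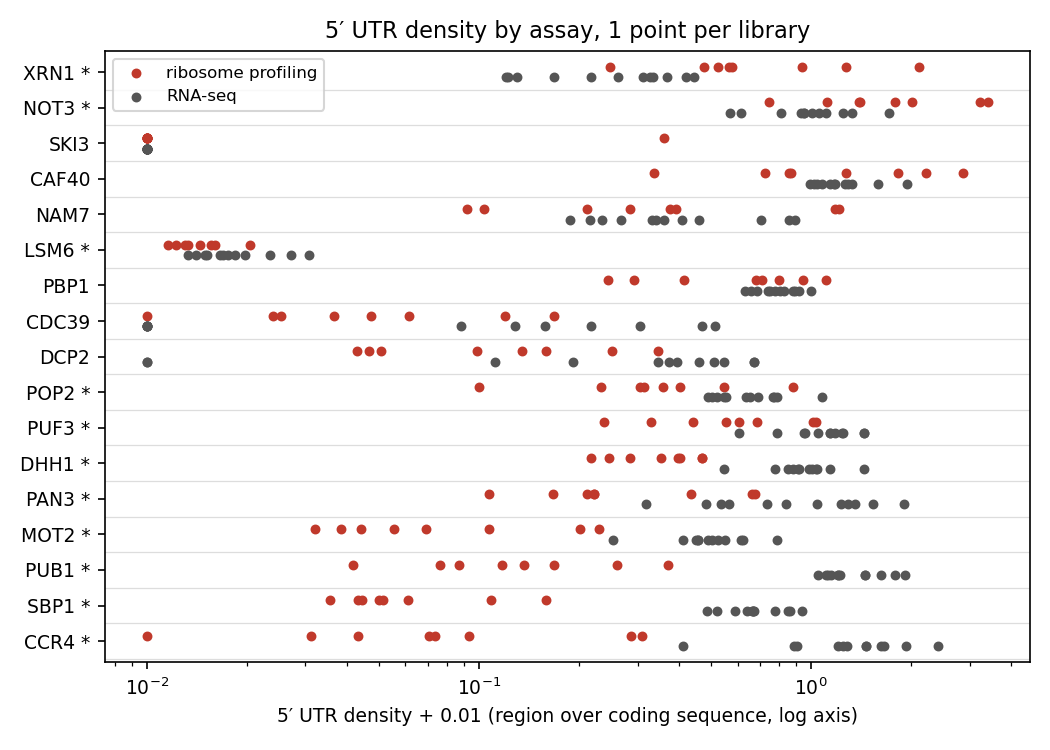
Each point is the 5′ UTR density + 0.01 of 1 library on a log axis, with ribosome profiling above RNA-seq in each row, and an asterisk marks an adjusted exact p of 0.05 or less. XRN1 and NOT3, at the top, had higher densities by ribosome profiling than by RNA-seq, and CCR4, at the bottom, had no overlap between assays.

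In cdc33-ts4-2 cells the shift to 37°C raised 5′ UTR footprint density in 5 of the 17 members and lowered it in none, by limma with Benjamini-Hochberg adjustment over 1202 genes, of which 18.6% were called. The 5 were the Ccr4-Not genes CDC39, MOT2 and NOT3, the helicase gene NAM7 and PUF3, whose protein binds mRNAs for mitochondrial proteins. The fitted change was above 0 in 16 of the 17 members and 0 in SKI3, which was listed at 0 in all 4 libraries of this strain, and the median was 1.41 over the 17 against 0.83 for all genes. CDC39 had 0.158 and 0.110 at 37°C against 0.0154 and 0.0140 at 25°C, a log2 change of 2.52 ± 0.66 (SE, limma adjusted p = 0.047). Both heated libraries stood well above both unheated ones.

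MOT2 had 0.219 and 0.192 at 37°C against 0.0341 and 0.0456 at 25°C in cdc33-ts4-2 cells, a change of 2.12 ± 0.42 (SE, limma adjusted p = 0.031). NAM7 had 1.21 and 1.17 against 0.366 and 0.276, a change of 1.87 ± 0.34 (SE, limma adjusted p = 0.028). Its leader was thus covered slightly more densely than its coding sequence at 37°C. NOT3 had 3.21 and 3.39 at 37°C against 1.40 and 1.38 at 25°C, a change of 1.24 ± 0.26 (SE, limma adjusted p = 0.035). PUF3 had 1.00 and 1.02 at 37°C against 0.431 and 0.542 at 25°C, a change of 1.05 ± 0.25 (SE, limma adjusted p = 0.040). In none of the 5 did the groups overlap. The 5 were picked by their calls, so this adds nothing to the calls, and the share over all genes was not counted. XRN1 had 2.10 and 1.26 at 37°C against 0.513 and 0.568 at 25°C and did not pass (limma adjusted p = 0.052).

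NOT3, PUF3 and NAM7 rose in CDC33 cells as well, where 3 of 17 members and 14.8% of all genes were called. NOT3 had 1.78 and 2.00 at 37°C against 0.737 and 1.104 at 25°C, a change of 1.05 ± 0.26 (SE, limma adjusted p = 0.047). PUF3 had 0.595 and 0.675 against 0.229 and 0.319, a change of 1.198 ± 0.25 (SE, limma adjusted p = 0.035). NAM7 had 0.201 and 0.383 at 37°C against 0.0938 and 0.0818 at 25°C, a change of 1.56 ± 0.34 (SE, limma adjusted p = 0.037). In CDC33 cells CDC39 had 0.0514 and 0.0374 at 37°C against 0.0266 and 0 at 25°C, and MOT2 0.0591 and 0.0975 against 0.0222 and 0.0285. Neither passed. The difference of the 2 temperature changes, cdc33-ts4-2 minus CDC33, was called in none of the 17 members and in 0.25% of genes. At an unadjusted limma p under 0.05 stood 0 members and 119 of 1202 genes. The strains were thus not shown to differ at these leaders.

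These rises went with a shift of all leaders. The median footprint density over the complete genes was 0.189 and 0.182 at 37°C against 0.0747 and 0.0672 at 25°C in cdc33-ts4-2 cells, and 0.0772 and 0.1004 against 0.0379 and 0.0508 in CDC33 cells. With the medians of the libraries set equal, none of the 5 members was called in cdc33-ts4-2 cells and none of the 3 in CDC33 cells. In cdc33-ts4-2 cells NOT3 stood at -0.04 and PUF3 at -0.23, and DHH1 alone was called, lower, at -0.83. There 208 genes (17.3%) were called, 183 of them lower. This setting did not bring the typical gene to 0. The median change in that strain was -0.45 over all genes and 0.13 over the members, so NOT3 and PUF3 still lay above the median gene. With any 1 of the 4 cdc33-ts4-2 footprint libraries left out, 0 of the 17 members were called in that strain, and with either CDC33 library of 37°C left out, 2, while 9 were called without either CDC33 library of 25°C. In CDC33 cells 0 were called higher without any single library but replicate 2 of 25°C, without which 5 were. With the replicate number as a block, 0 members (3.41% of genes) were called in cdc33-ts4-2 cells, and in CDC33 cells PUF3 stayed called, NOT3 and NAM7 did not, and CAF40 was called higher at 1.77 (11.4% of genes). With 2 libraries a group, the calls rest on spread shared across genes and groups.

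**Figure D3:**
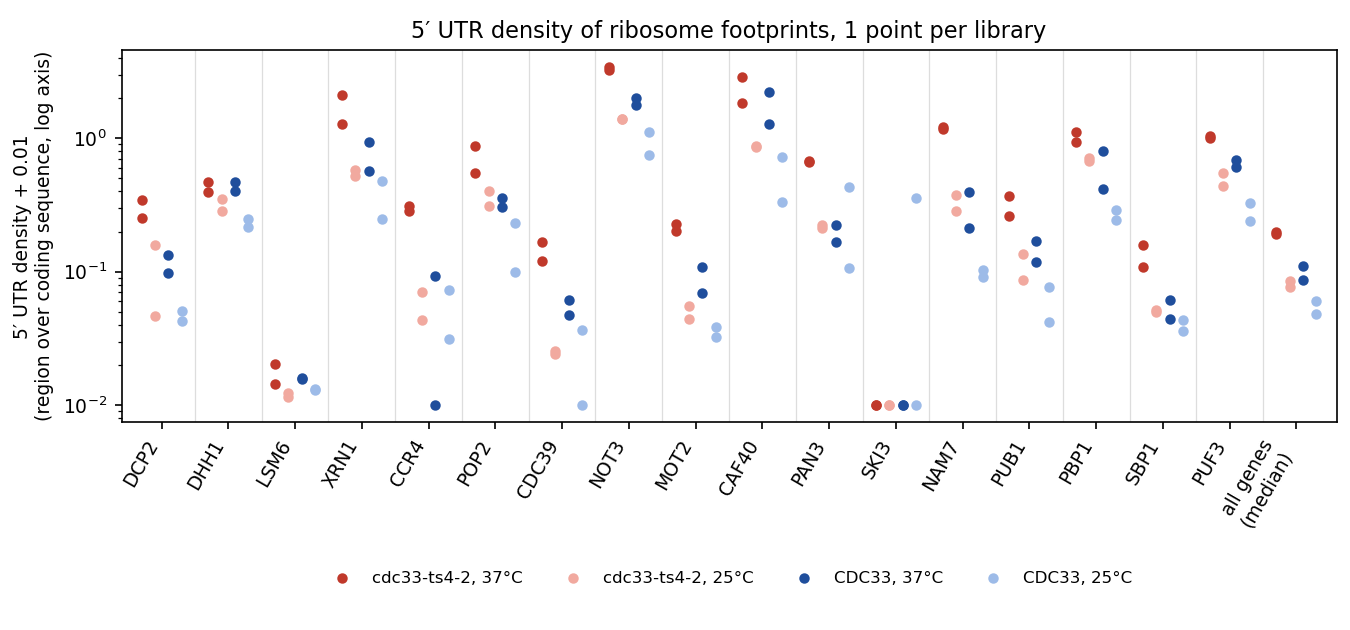
Each point is the 5′ UTR footprint density + 0.01 of 1 library on a log axis, by gene, strain and temperature, with the median of all complete genes at the right. NOT3 reached 3.21 and 3.39 at 37°C in cdc33-ts4-2 cells, and the median of all genes was also highest there, at 0.189 and 0.182.

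In 5′ UTRs by RNA-seq, a single member was called, PAN3, the regulatory subunit gene of the Pan2-Pan3 deadenylase, out of 16 tested, against 3.64% of genes. SKI3 was not tested there, since it was at 0 in every library. The PAN3 density was 1.89, 1.52 and 1.34 at 37°C in cdc33-ts4-2 cells against 0.724, 0.557 and 0.526 at 25°C. It was 0.828, 0.471 and 0.308 in CDC33 cells at 37°C against 1.28, 1.03 and 1.22 at 25°C. The groups did not overlap in either strain, and they lay in opposite orders.

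PAN3 rose by 1.38 ± 0.30 (SE, n = 3 each, limma adjusted p = 0.031) in cdc33-ts4-2 cells. Its fitted change in CDC33 cells was -1.23 ± 0.30 and did not pass (limma adjusted p = 0.15). No member was called in that strain, where 0.339% of genes were. At an unadjusted limma p under 0.05 stood 2 of the 16 members and 125 of 1181 genes. The difference between the strains was 2.60 ± 0.43 (SE, limma adjusted p = 0.023), the only call among the 16 members, against 0.931% of genes. The 100 nt of genome before the PAN3 start codon hold 3 ATGs, the nearest 43 nt before it. The length of the PAN3 leader was not tabulated, so whether the ATGs lie within it is unknown. In cdc33-ts4-2 cells the footprint density over this leader was 0.652 and 0.665 at 37°C against 0.212 and 0.202 at 25°C. In CDC33 cells it was 0.157 and 0.212 against 0.0970 and 0.424. Neither footprint change passed. With library medians set equal the RNA-seq difference was 2.31 (limma adjusted p = 0.078), and over the 12 libraries left out in turn it stayed between 2.27 and 2.97, with an adjusted p of 0.0018 to 0.074 that was above 0.05 without replicates 2 or 3 of cdc33-ts4-2 at 25°C, replicate 1 of cdc33-ts4-2 at 37°C or replicate 1 of CDC33 at 25°C. The rise in cdc33-ts4-2 cells kept a value of 1.24 to 1.52, and its adjusted p was above 0.05 without any 1 of the 6 libraries of that strain or replicate 2 of CDC33 at 37°C, reaching 0.11.

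Footprints beyond the stop codon were scarce in all 16 members. In 3′ UTRs all 16 had a lower density by ribosome profiling than by RNA-seq, as had 1204 of 1206 genes tested (99.8%), with differences on log2(density + 0.01) of -7.60 in SKI3 to -4.28 in PAN3 (exact permutation test, adjusted p = 0.0001 in each, from the smallest p of 0.0001 that 10000 arrangements allow). The median was -6.26 over the members and -5.63 over all genes. The median member was covered at 0.00242 and 0.00113 in the footprint libraries of cdc33-ts4-2 cells at 25°C. Many single values were 0, and no depth limit can be given for them.

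At 37°C in cdc33-ts4-2 cells, 8 of 16 members rose in 3′ UTR footprint density and 1 fell, by limma over 1171 genes, of which 38.7% were called. The 8 were the deadenylation genes CCR4, CDC39 and PAN3, the decapping activator gene DHH1, the helicase gene NAM7, and PUB1, SBP1 and PUF3 of the mRNP proteins, and the gene that fell was DCP2. The median fitted change was 2.02 over the members and 0.97 over all genes. Over the 516 genes with a mean density of at least 0.01, the median was 2.21 over the 10 members left and 2.27 over all genes. Of the 10, 8 rose, against 69.8% of genes called. That mean includes the heated cdc33-ts4-2 libraries, through which DHH1 and SBP1 passed, while DCP2 dropped out. The filter thus favours genes that rose, and it cannot show whether the gap rests on sparse genes. NAM7 changed most, with 0.142 and 0.230 at 37°C against 0.00654 and 0 at 25°C, a change of 3.89 ± 0.40 (SE, limma adjusted p = 0.0026). Its annotated 3′ UTR of 442 nt was the longest of the 4 members whose lengths were tabulated, beside 276 nt in SKI8, 195 nt in PAT1 and 127 nt in SKI3.

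PAN3 had 0.203 and 0.124 at 37°C against 0.0221 and 0 at 25°C in cdc33-ts4-2 cells, a change of 3.24 ± 0.59 (SE, limma adjusted p = 0.0085). PUF3 had 0.0630 and 0.141 against 0.00350 and 0, a change of 3.18 ± 0.42 (SE, limma adjusted p = 0.0033). CDC39 had 0.189 and 0.0990 against 0.00925 and 0.00842, a change of 2.97 ± 0.44 (SE, limma adjusted p = 0.0044). These scales of change are held down by the added 0.01, which exceeds most of the 25°C values. PUB1 had 0.0725 and 0.0553 at 37°C against 0.00712 and 0.00382 at 25°C, a change of 2.26. DHH1, the helicase that links repression of translation to decapping, had 0.0410 and 0.0516 against 0.00281 and 0.00259, a change of 2.14. In CCR4 the densities were 0.0420 and 0.0681 at 37°C against 0.00506 and 0.00462 at 25°C, a change of 2.10. SBP1 had 0.0315 and 0.0430 against 0.00203 and 0.00245, a change of 1.94. In none of the 8 genes did the groups overlap. These genes were picked by their calls, so this adds nothing to the calls, and the share over all genes was not counted.

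The remaining members had footprints in at most 1 of the 2 heated cdc33-ts4-2 libraries, or low values in both. NOT3 had 0 and 0.192 there, SKI3 0 and 0.0659, PBP1 0.0591 and 0, and XRN1 0 and 0.0405, so their replicates disagreed. MOT2 and POP2 were listed at 0 in both, and LSM6 had 0.00660 and 0.00933. Of the 11 other decay genes with complete values, 6 were called and all 6 rose, with a median change of 2.49 over the 11, and the largest were the exosome nuclease gene DIS3 at 4.61 and the nuclear exonuclease gene RAT1 at 4.35.

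The DCP2 gene, which encodes the catalytic subunit of the decapping enzyme, went the other way. Its 3′ UTR footprint density was 0 and 0 at 37°C in cdc33-ts4-2 cells against 0.0194 and 0.0167 at 25°C, and 0.0134 and 0.0113 in CDC33 cells at 37°C against 0 and 0 at 25°C. The change in cdc33-ts4-2 cells was -1.49 ± 0.23 (SE, limma adjusted p = 0.0053) on a scale that the added 0.01 sets, since 2 groups were at 0. It was the only member that fell, and 6 of 1171 genes did. All 4 values above 0 are small, the reads behind them are unknown, and whether a 0 differs from so low a density by more than counting error could not be told. Over the DCP2 leader, footprints had 0.241 and 0.337 at 37°C against 0.149 and 0.0368 at 25°C in cdc33-ts4-2 cells, and that change did not pass.

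In CDC33 cells no member was called in 3′ UTR footprint density, where 0.256% of genes were. At an unadjusted limma p under 0.05 stood 1 of 16 members and 72 of 1171 genes. The median change was 0.10 over the members and 0.11 over all genes. The difference of the temperature changes, cdc33-ts4-2 minus CDC33, was called in 5 members, against 16.1% of genes. At a mean density of at least 0.01 it was called in 7 of 10 members, against 40.9% of genes. The medians were 2.09 over the members and 2.03 over all genes. Since that mean includes the heated cdc33-ts4-2 libraries, the filter favours genes high there, and these larger shares add no strength to the difference. PUF3 had 0 and 0 in CDC33 cells at 37°C against 0.00658 and 0.00732 at 25°C, and differed by 3.94 ± 0.59 (SE, limma adjusted p = 0.024). NAM7 had 0.00566 and 0.00579 against 0.00264 and 0, and differed by 3.41 ± 0.57 (SE, limma adjusted p = 0.024). DHH1 had 0.00421 and 0.00498 at 37°C against 0.00440 and 0.00154 at 25°C in CDC33 cells, and differed by 1.96 ± 0.39 (SE, limma adjusted p = 0.032).

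SBP1, whose protein represses translation, had 0.00637 and 0.00321 at 37°C against 0.00320 and 0.00260 at 25°C in CDC33 cells, and the strains differed by 1.75 ± 0.40 (SE, limma adjusted p = 0.038). For DCP2 the difference was -2.65 ± 0.33 (SE, limma adjusted p = 0.023). In the 4 genes that were higher, all 4 libraries of CDC33 cells stood at 0.00732 or below, where both heated cdc33-ts4-2 libraries stood at 0.0315 or above.

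The whole set of 3′ UTRs shifted in the same libraries. The median of the complete genes was 0.0102 and 0.0170 at 37°C in cdc33-ts4-2 cells against 0.000999 and 0.00104 at 25°C, and 0.00178 and 0.00372 against 0.00136 and 0 in CDC33 cells. With library medians set equal, CDC39 (1.83), PAN3 (2.10), PUF3 (2.04) and NAM7 (2.76) stayed called higher in cdc33-ts4-2 cells. DCP2 stayed lower (-2.63), POP2 was called lower at -1.14, and 34% of genes were called. POP2 was listed at 0 in every footprint library of that strain, at 25°C as at 37°C. Its value is thus only the shift of the library medians, which the value of DCP2 also includes. The calls of CCR4, DHH1, SBP1 and PUB1 were lost, and no gene was called for the difference between strains (0%). CCR4 alone also lost its call in cdc33-ts4-2 cells without either library of 25°C or without replicate 2 of 37°C, at 1.81 to 2.40. In the main fit, with 1 library left out at a time, the difference between strains was 3.41 to 4.46 in PUF3 and 3.05 to 3.77 in NAM7. It was 1.80 to 2.12 in DHH1, 1.57 to 1.92 in SBP1 and -2.72 to -2.58 in DCP2. Each of these genes lost its call without some single libraries, and the calls over all genes changed widely as well. With the replicate number as a block, 7 of the 8 rises and the fall of DCP2 stayed called in cdc33-ts4-2 cells (28.4% of genes), CCR4 lost its call, and neither a member nor any other gene was called for the difference between strains.

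**Figure D4:**
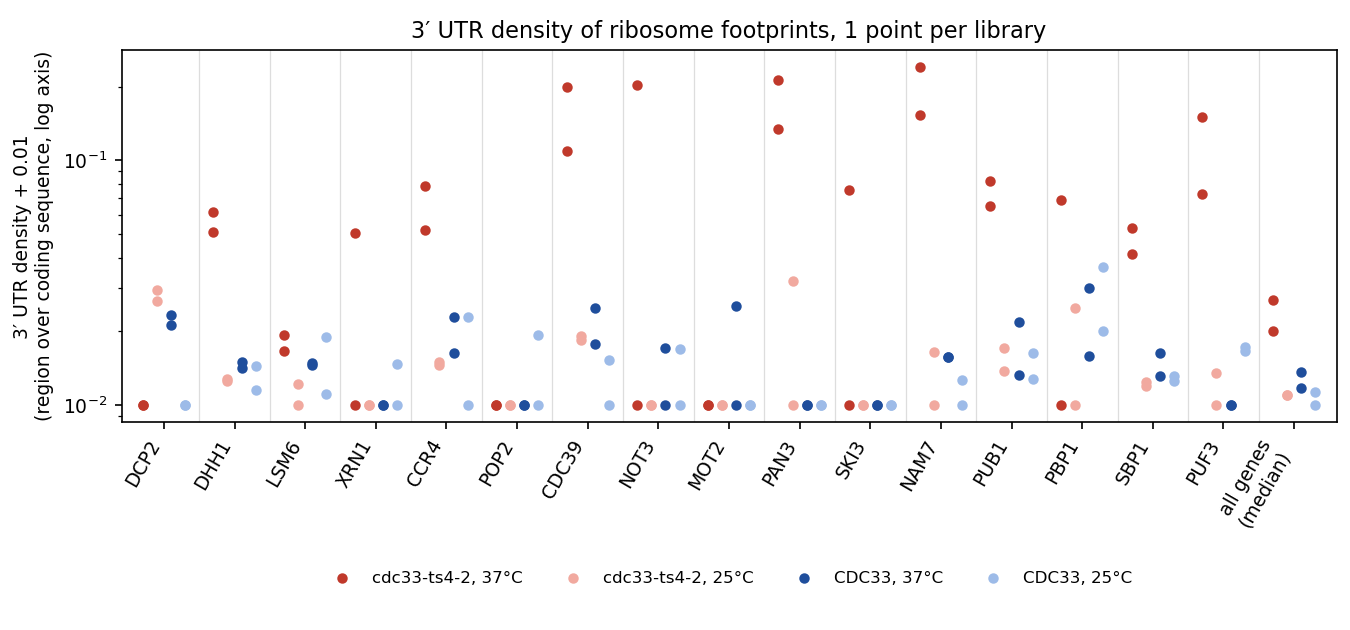
Each point is the 3′ UTR footprint density + 0.01 of 1 library on a log axis, by gene, strain and temperature, and points at 0.01 are densities of 0. The heated cdc33-ts4-2 libraries stand highest in 8 genes, NAM7 among them at 0.142 and 0.230, and at 0 for DCP2.

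**Figure D5:**
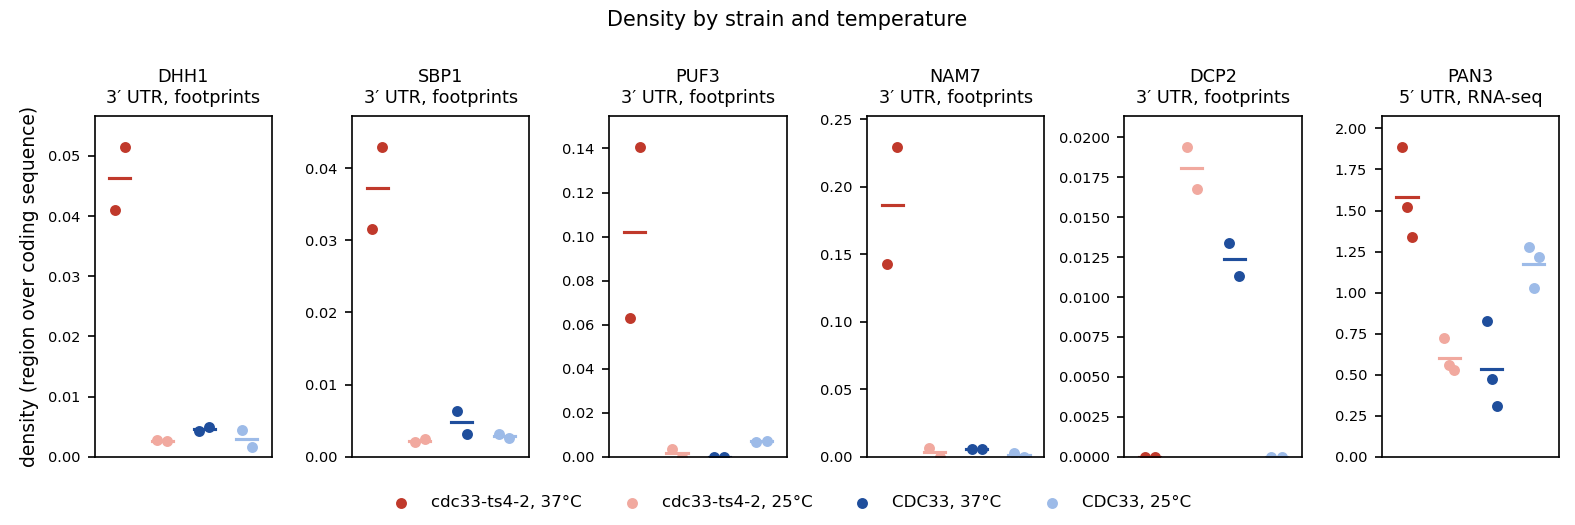
Points are libraries and lines are group means of the density, on a linear axis from 0 that differs by panel, for the 6 genes whose temperature change differed between strains. DHH1, SBP1, PUF3 and NAM7 were high in heated cdc33-ts4-2 cells, DCP2 was at 0 there, and for PAN3 by RNA-seq the groups lay in opposite orders in the 2 strains.

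RNA-seq coverage of 3′ UTRs served as the comparison for these footprint changes, and none of the 16 members was called in it. In cdc33-ts4-2 cells 2.57% of genes were called, and 3 members and 174 of 1206 genes had an unadjusted limma p under 0.05. In CDC33 cells 0% were called, with 0 members and 45 genes unadjusted. In the difference between the strains 0% were called, with 2 members and 70 genes unadjusted. NAM7 had 1.61, 1.61 and 1.73 at 37°C in cdc33-ts4-2 cells against 2.12, 1.54 and 2.08 at 25°C. DCP2 had 1.98, 0.706 and 1.67 at 37°C against 1.11, 1.58 and 1.72 at 25°C in the same strain. SBP1 had 3.03, 1.56 and 2.96 at 37°C against 1.57, 1.44 and 1.04 at 25°C in that strain. In CDC33 cells the SBP1 means were 1.16 at 37°C and 1.15 at 25°C. In each gene the groups overlapped. The groups did not overlap in 6 of the 16 members in cdc33-ts4-2 cells, of which none passed, and in MOT2 alone in CDC33 cells. The same count was not made over all genes, so the share to set beside it is unknown. In cdc33-ts4-2 cells the 6 were higher at 37°C in PUF3, PUB1, MOT2 and SKI3 and lower in LSM6 and PBP1. Of the genes with more footprints, PUF3 had 2.47, 2.57 and 2.29 at 37°C against 1.70, 1.97 and 1.67 at 25°C, a fitted change of 0.46 (limma adjusted p = 0.53). PUB1 had 1.06, 0.938 and 1.00 against 0.583, 0.786 and 0.660, a fitted change of 0.56 (limma adjusted p = 0.31). SKI3 had 3.82, 3.63 and 4.61 against 1.93, 0.874 and 2.74, a fitted change of 1.26 (limma adjusted p = 0.12). With library medians set equal SKI3 passed at 1.23, and with the replicate number as a block at 1.26 (limma adjusted p = 0.018).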

How the data were processed

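RNA-seq (12 samples) and ribosome profiling (8 samples) were grouped by strain, temperature and assay from the labels. Tools named in the submitters' processing notes are STAR 2.7.10b, featureCounts 2.01, Salmon 1.9.0, DESeq2 1.32.0, cutadapt 4.1, HISAT2 2.2.1, SAMtools 1.16.1 and bedtools 2.30.0, with genome R64. The deposited UTR densities are a ratio: the authors mapped reads with STAR, counted unique reads with strand enforced and at least 50% of a read in the feature, divided by length, and divided again by the mean coverage of the coding sequence. UTRs were the longest annotated, or 120 nt (5′) and 200 nt (3′) by default. The deposited mean levels are a signal, the authors' DESeq2 mean of size-factor-normalised Salmon counts over coding sequences with 50 nt on each side. Here they were divided by coding length plus 100 nt. The deposited fold changes, standard errors and p-values of the authors' own comparisons were not used, nor were the intron table, in which 1 member (NMD2) had 15 of 20 values, and the coverage tables. Other deposited values used were UTR lengths. Coding lengths equalled the reference for 868 of 868 matched genes.

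Missing densities had closed up to the left of a line, so only lines with 20 values were assigned to samples. Genes at 0 in every sample of a fit were dropped. limma 3.58.1 (R 4.3.3; moderated, with trend) was fitted to log2(density + 0.01), each assay apart over its 4 groups, and p-values were adjusted by Benjamini-Hochberg over all genes, with calls at 0.05 or less. Fold changes are on that scale and understate changes of low densities. With 2 against 2 libraries an exact test of 1 gene cannot go below p = 0.333, and with 3 against 3 below 0.1, hence the pooled model. Assays were compared by exact permutation within strain and temperature (numpy and scipy, two-sided). Both were run on simulated data with normal noise, which held no mass of values at 0 as the 3′ UTR footprints did. That run cannot show how the tests behave on such values. No 2 samples held the same values. Alternatives were pseudocounts of 0.001 and 0.1, a mean density of at least 0.01, equal sample medians, each replicate left out, the replicate number as a block and, for levels, coding length alone or a mean of at least 20.

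Named were members called in any comparison, the 3 highest and lowest densities, and the 5 highest and lowest levels and ratios; other members named beside them were chosen after their values were seen. The members and lists were chosen with earlier results of these data known. The study calls the ribosome profiling and RNA-seq samples biological replicates and, for its polysome extracts, describes cultures divided between the temperatures. No source used here ties a replicate number to 1 culture, so the fit without the block is the main one, and blocked values stand beside results whose calls they change.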

Additional observations from a re-analysis of the deposited data

Results flagged for a closer look

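The temperature change differed between the strains, by the test of that difference in limma, for 6 members. In 3′ UTR footprint density the differences, cdc33-ts4-2 minus CDC33, were 3.94 for PUF3, 3.41 for NAM7, 1.96 for DHH1, 1.75 for SBP1 and -2.65 for DCP2, with adjusted p-values of 0.023 to 0.038. In 5′ UTR density by RNA-seq the difference was 2.60 for PAN3 (limma adjusted p = 0.023). The same test called 16.1% of all genes in 3′ UTR footprints and 0.931% in 5′ UTR RNA-seq. The 3′ UTR densities of all genes shifted in the same heated cdc33-ts4-2 libraries, and none of the 6 differences was called with sample medians set equal. With the replicate number as a block, the 5 footprint differences were not called and that of PAN3 was (limma adjusted p = 0.041).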

How the results depend on the processing

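The calls depended on the scaling. With sample medians set equal, 5′ UTR footprints gave 208 genes and 1 called member in cdc33-ts4-2 cells. The median gene stood at -0.45 there, NOT3 at -0.036 and PUF3 at -0.23. In CDC33 cells they gave 0 members and 19 genes. For 5′ UTR RNA-seq this setting gave 0 members in cdc33-ts4-2 cells and, for the difference between strains, 0 members and 3 genes. In 3′ UTRs it gave 0 genes in CDC33 cells and 0 members and 0 genes for the difference between strains by footprints, and 1 member and 108 genes in cdc33-ts4-2 cells and 3 genes for the difference by RNA-seq. Between assays it gave 719 genes and 8 members in 3′ UTRs, with PAN3 at 1.69, and in 5′ UTRs called 11 members higher and 3 lower and put PAN3 at 0.69, DHH1 at 0.87, PUF3 at 1.37, POP2 at 1.37 and LSM6 at 1.97. Only here did a named value change sign, by the construction of the setting.

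A pseudocount of 0.1 gave 378 genes and 9 members for 5′ UTR footprints in cdc33-ts4-2 cells and 1 member in CDC33 cells, and in 3′ UTRs 0 genes in CDC33 cells and 8 members for the difference. A pseudocount of 0.001 gave, in 3′ UTR footprints, 24 genes and 1 member in CDC33 cells and 30 genes and 2 members for the difference. A mean density of at least 0.01 gave 1 gene for the difference in 5′ UTR footprints and 1 gene in 3′ UTR footprints of CDC33 cells. The median RNA percentile of the members was 55.0 by coding length alone and 52.4 over genes with a mean of at least 20.

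With the replicate number as a block, 5′ UTR footprints gave 41 genes and 0 members in cdc33-ts4-2 cells and 0 genes for the difference, 3′ UTR footprints gave 0 genes in CDC33 cells and 0 genes and 0 members for the difference, and 3′ UTR RNA-seq gave 69 genes and 1 member in cdc33-ts4-2 cells. The block also removed the calls of NOT3 and NAM7 in 5′ UTRs of CDC33 cells and of CCR4 in 3′ UTRs of cdc33-ts4-2 cells, and PAN3 stayed called by RNA-seq in both of its comparisons. Deviations of samples with the same number correlated at 0.064 to 0.327 in 3′ UTRs and -0.105 to 0.157 in 5′ UTRs by RNA-seq, and at -0.062 to 0.052 by footprints. By RNA-seq 5 of 6 heated samples in 3′ UTRs and 2 of 6 in 5′ UTRs correlated best with their own number. Not every pair was over 0.1, so whether the numbers mark parts of the same culture could not be told.

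Leaving out 1 library at a time, the called genes and members for 5′ UTR footprints ranged over 0 to 347 and 0 to 9 in cdc33-ts4-2 cells, 4 to 307 and 0 to 5 in CDC33 cells, and 0 to 7 and 0 to 1 for the difference. For 5′ UTR RNA-seq they ranged over 30 to 41 and 0 to 1, 4 to 7 and 0 to 1, and 4 to 11 and 0 to 2. For 3′ UTR footprints they ranged over 238 to 577 and 8 to 12, 0 to 30 and 0 to 1, and 0 to 341 and 0 to 8, and for 3′ UTR RNA-seq over 2 to 92 and 0 to 1, 0 to 2 and 0 to 0, and 0 to 6 and 0 to 0. A group left with 1 library was assumed to vary like the others. The cause of these changes was not tested. The intron comparisons were not run, since no member had complete values. Depth is unknown for every density.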
